A study of Mus musculus with 8 samples.

Results

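Replication-dependent histone genes supply the core histones H2A, H2B, H3 and H4 and the linker histone H1 that package newly made DNA. They were taken here as the protein-coding genes of the deposited count table whose name begins with Hist1h, Hist2h, Hist3h or Hist4h, which gave 67 of the 54532 rows. 3 further rows with these prefixes are annotated as pseudogenes and were left out. Of the 67 genes, 27 had enough counts for a test. Whole-retina RNA was sequenced in 4 samples from *Mettl3*-CKO mice, in which *Six3-Cre* deletes both floxed alleles of *Mettl3* (Six3-Cre+; Mettl3floxed/floxed), and in 4 samples from controls, which the series text calls littermates and whose own genotype is not given in the labels. *Mettl3* encodes the catalytic subunit of the m6A writer complex, which methylates adenosines in mRNA. The pups were 7 days old in the labels and 6 days old in the methods, when the last retinal progenitors divide and rods mature. *Six3-Cre* acts in retinal progenitors and their progeny, so vessels, blood and other tissue collected with a retina keep *Mettl3*, and efficient deletion is described for the central retina. The comparison asks how these genes differ between mutant and control retinas at that age.

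Most mRNAs of this class differ from all others in how they end. They carry no poly(A) tail and close with a short conserved stem-loop, which SLBP binds and behind which the U7 snRNP directs cleavage, and they are made in S phase and degraded when DNA synthesis stops. Most replication-independent histone genes, such as *H3f3b* and *H2afz*, give polyadenylated mRNAs and are also used by cells that no longer divide. Some replication-dependent genes, *Hist1h1c* among them, also give polyadenylated mRNA in differentiated cells. Whether poly(A)+ RNA was selected for these libraries is not given in the sources used here, so a level below is the level of whatever part of a gene's mRNA entered the library.

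The stem-loop was searched in the annotated transcripts (GENCODE, GRCm38), and it is printed here for the 7 genes on which the values below turn and for which a match was found. Each line reads 5′ to 3′ on the strand of the gene, with the 16 bases of the stem and loop in capitals and the neighbouring bases in lower case.
Hist1h1c: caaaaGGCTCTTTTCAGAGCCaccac
Hist3h2ba: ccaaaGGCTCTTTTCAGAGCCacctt
Hist3h2a: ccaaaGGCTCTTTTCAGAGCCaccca
Hist1h1e: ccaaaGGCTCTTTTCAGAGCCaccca
Hist1h3c: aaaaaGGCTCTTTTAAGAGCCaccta
Hist2h2ac: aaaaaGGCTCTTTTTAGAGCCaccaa
Hist1h4i: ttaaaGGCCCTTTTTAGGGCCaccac
The capitals lie at chr13:23739512-23739527 on the plus strand for *Hist1h1c*, at chr11:58949349-58949364 on the plus strand for *Hist3h2ba* and at chr11:58955172-58955187 on the plus strand for *Hist3h2a*. On the minus strand they lie at chr13:23621782-23621797 for *Hist1h1e*, at chr13:23745047-23745062 for *Hist1h3c*, at chr3:96220418-96220433 for *Hist2h2ac* and at chr13:22040966-22040981 for *Hist1h4i*. *Hist1h1c*, the histone gene with the smallest adjusted p between the groups, therefore has the same 16 bases as *Hist3h2ba*, which had the highest level per length.

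The searched motif was GG, 3 free bases, TTTT, 1 free base, A, 2 free bases and GCC on the sense strand, within 150 bases after the stop codon. 50 of the 67 genes have at least 50 annotated bases there, and 41 of the 50 (82.0%) held the motif, against 6 of 20743 other genes (0.0289%). The 6 include the histone genes *H2bfm* and *H2afx*, and *H2afx* is counted below among the replication-independent histone genes. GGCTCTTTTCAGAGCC was found in 25 genes and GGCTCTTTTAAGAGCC in 6. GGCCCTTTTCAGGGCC was found in 7 genes, all of the H4 family. The other H4 form, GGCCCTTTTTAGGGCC, belonged to *Hist1h4i* and *Hist2h4*, and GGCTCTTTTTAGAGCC to *Hist2h2ac* alone. *Hist2h2be* and *Hist1h2bc*, both H2B genes, had no match in the searched window.

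The ends annotated for the genes of most counts also hold another signal. AATAAA, the usual signal for a poly(A) tail, was searched on the sense strand in the last 60 bases of the annotated transcripts and was found in 12 of the 50 searched genes (24.0%), against 60.5% of other genes. *Hist1h1c*, *Hist3h2ba*, *Hist2h2be* and *Hist3h2a*, the 4 genes of most counts, are among the 12. The annotation runs past the stem-loop by 840 bases in *Hist1h1c*, 169 in *Hist3h2ba* and 1643 in *Hist3h2a*, while *Hist2h2be* has no stem-loop match. Over the 8 genes with both the stem-loop and AATAAA, the annotated stretch after the stem-loop was 151 to 2445 bases, and over the 33 with the stem-loop alone it was 3 to 4884 bases with a median of 46, so the ranges overlapped. The 12 genes together held 78.7% of all counts of the 67 genes, and the 55 without the signal, 17 of which had too little annotated sequence to search for a stem-loop, held 21.3%. A match in the annotation is a description and does not show which ends were used in these retinas. In RefSeq promoters (GRCm38.p6, 250 bases before to 50 after the start, both strands), matched for 61 of the genes, CCAAT was present in 52 (85.2%) against 37.8% of 26964 other genes, and TATAAA in 35 (57.4%) against 14.1%.

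The 67 genes lie in 4 clusters (GRCm38). Hist1 holds 54 of them at chr13:21715763-23934851, Hist2 holds 10 at chr3:96219865-96270132, Hist3 holds 2 at chr11:58948920-58956830 and Hist4 holds 1 at chr6:136801553-136804415. By family there are 6 H1, 18 H2A, 18 H2B, 12 H3 and 13 H4 genes, of which 3, 7, 6, 5 and 6 were tested. Of the 40 untested genes, 31 had some counts and 9 had 0 counts in every sample, and 48 of the 67 never exceeded 30 counts in a sample. Nearly identical coding sequences are common in this family, and how reads mapping to several genes were treated is not given in the sources used here. In 54 of the genes at least 1 window of 150 bases, the length of a read, also occurs in another gene's transcripts. This includes genes that overlap at the same position. The windows of *Hist2h2bb* are shared only with *Gm20628* and *Gm42743*, which overlap it. Those of *Hist3h2a* are shared only with *Trim17*, which also overlaps it. All windows are shared in 5 genes (*Hist2h2aa1*, *Hist2h2aa2*, *Hist2h2bb*, *Hist2h3b* and *Hist2h3c1*), and each of the 5 had 0 counts in all 8 samples. *Hist1h2ap* and *Hist1h4b* also had 0 counts and share over 60% of their windows, whereas the testis genes *Hist1h1t* and *Hist1h2aa* had 0 counts and share none. A count of 0 in a gene of the first 5 therefore gives no upper limit on its level. In *Hist1h2ap* and *Hist1h4b* it bears on the unshared windows only. For *Hist1h1t* and *Hist1h2aa*, 3 counts, the limit that a count of 0 allows, correspond to 0.148 to 0.185 CPM (counts scaled to library size). The value depends on the library and covers counting error only. *Hist1h2aa* overlaps *Gm44344* on the opposite strand and the strand setting is not given, so for it this limit may not hold. The windows of *Hist1h1c*, *Hist3h2ba*, *Hist2h2be* and *Hist2h2ac* are shared with no other gene, and those of *Hist1h4i* to 2.08%, *Hist1h2bc* to 17.4% and *Hist3h2a* to 28.0%.

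**Figure D1:**
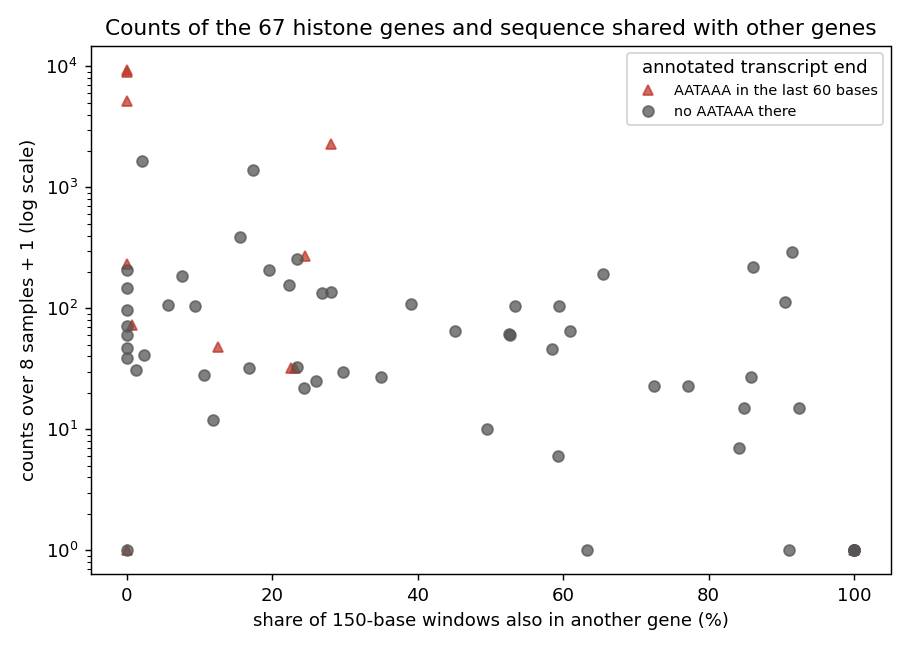
Counts summed over the 8 samples plus 1 (log scale) for each of the 67 histone genes against the percentage of its 150-base windows that also occur in another gene. Triangles have AATAAA in the last 60 bases of the annotated transcript; the genes of most counts share 0 to 28.0% of their windows, and the 5 genes that share all of them lie on top of each other at 0 counts.

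Libraries held 16227095 to 20281517 counts. *Mettl3* itself was 24.1 ± 3.97 CPM in *Mettl3*-CKO and 31.2 ± 2.24 CPM in control retinas (SD, n = 4 each), a log2 fold change of -0.38 (SE 0.12, edgeR adjusted p = 0.0602), with the single samples at 21.1 to 29.6 and 29.3 to 33.8 CPM. A gene count does not show whether the floxed exon is missing. Across all 17998 genes tested, 10.5% differed at an adjusted p under 0.05, with 6.49% upregulated and 4.05% downregulated in *Mettl3*-CKO retinas. Control replicates 1 and 4 stood apart from the other controls by their lens markers, mostly crystallin genes, whose 11 members summed to 75.1 and 3770 CPM there and to 9.49 and 5.67 CPM in control replicates 2 and 3. Some results below, mainly counts of genes that passed and single histone genes, are therefore also given without both. This alternative was chosen after the data were seen. The sums and the markers of Müller glia and of tissue next to the retina are given with all samples only. Mutant and control samples are numbered by replicate below. Nothing in the sources used here says that a sample is a single animal, so p-values measure the spread between these samples.

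Among the 27 tested histone genes, 0 were upregulated and 2 were downregulated in *Mettl3*-CKO retinas (edgeR quasi-likelihood test, Benjamini-Hochberg adjusted over all genes), which is 7.41% against the background of 10.5%. The 2 were *Hist1h1c* and *Hist2h2be*. DESeq2 also gave 0 upregulated and 2 downregulated. At an unadjusted p under 0.05 there were 8 of the 27 genes, 2 higher and 6 lower, where 24.6% of all tested genes passed that threshold, 13.5% higher and 11.1% lower. The median log2 fold change of the tested histone genes was -0.34, with 19 below 0 and 8 above, compared with a median of -0.01 over all genes, 51.8% of which were below 0. The groups did not overlap in 3 of the 27 genes, *Hist1h1c*, *Hist2h2be* and *Hist3h2a*, all lower in the mutants. Over all tested genes, 17.4% did not overlap, counting both directions, and 7.58% were lower without overlap. The number downregulated was 1 (*Hist1h1c*) when any of *Mettl3*-CKO replicates 1 to 4 or control replicate 2 was left out, 3 without control replicate 1 and 4 without control replicates 1 and 4. Leaving out control replicate 1 also gave 1 upregulated gene, *Hist3h2ba*.

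**Figure D2:**
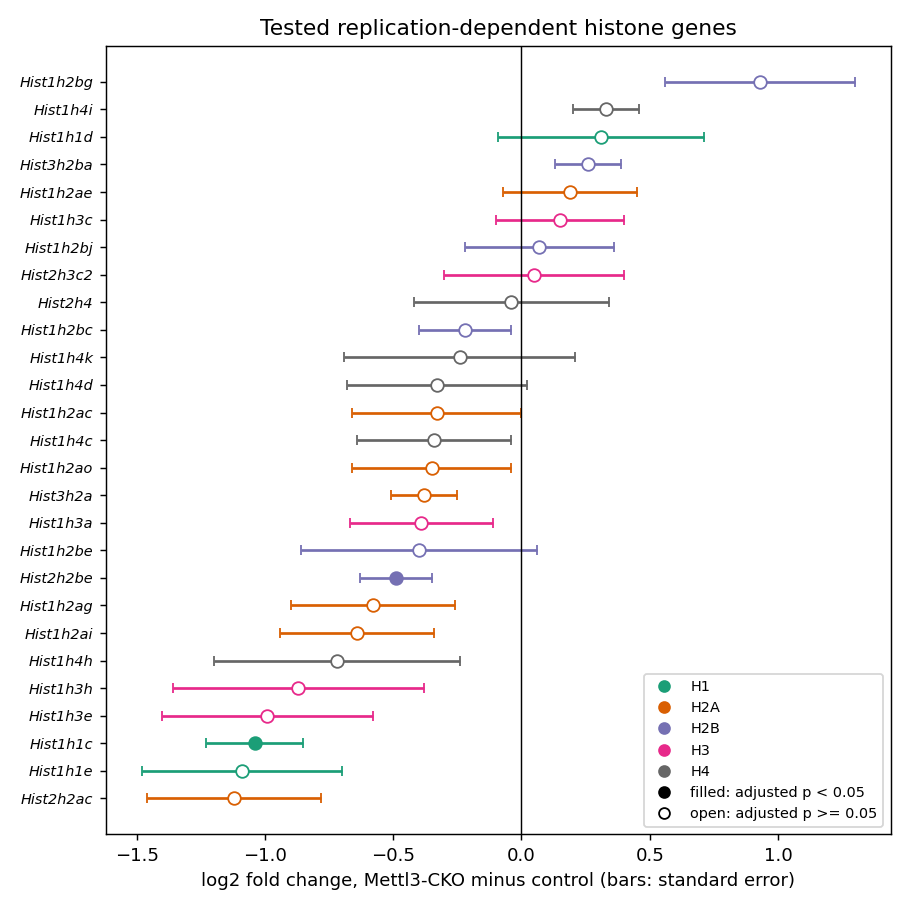
Fitted log2 fold change (*Mettl3*-CKO minus control) with its standard error for each of the 27 tested histone genes, colored by family. The values run from -1.12 to 0.93, 19 lie below 0, and the filled points, *Hist1h1c* and *Hist2h2be*, are the 2 genes past the adjusted p of 0.05.

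*Hist1h1c* encodes the linker histone H1c, which sits on the DNA between nucleosomes and accumulates in maturing mouse rods. It lies at chr13:23738808-23740367 on the plus strand. It was at 28.2, 32.5, 55.7 and 52.7 CPM in mutant samples 1 to 4 and 82.4, 73.5, 95.1 and 96.6 CPM in control samples 1 to 4. Every mutant sample was below every control, and mutant replicates 1 and 2 were lower than replicates 3 and 4. The mean was 42.3 ± 14 CPM against 86.9 ± 11 CPM, or 0.487 of the control level, with a log2 fold change of -1.04 (SE 0.19, edgeR adjusted p = 0.00612; two-sided exact permutation p = 0.0286, the smallest that 4 against 4 samples allow). In the count table this is 510 to 1079 counts against 1201 to 1812. Without control replicates 1 and 4 the log2 fold change was -0.99 (edgeR adjusted p = 0.0106).

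Rod genes moved in the same direction in the same samples. Of 7 rod markers, 4 were downregulated, *Nrl*, *Nr2e3*, *Pde6b* and *Gnat1*, and their sum was 1142, 1096, 1554 and 2011 CPM in mutant samples 1 to 4 and 2119 to 3046 CPM in controls. *Nrl* and *Nr2e3*, the transcription factors that set rod identity, had log2 fold changes of -0.79 (SE 0.16, edgeR adjusted p = 0.00861) and -0.81 (SE 0.15, edgeR adjusted p = 0.00615). The count of 4 was 2 without *Mettl3*-CKO replicate 1. The part of the rod difference in the *Hist1h1c* result was not tested, and in whole retinas fewer cells of a type cannot be told apart from less RNA per cell.

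Some genes of tissue next to the retina also passed the test. Of 3 tested erythroid markers, the hemoglobin genes *Hba-a1* and *Hbb-bs* were downregulated, and the 5 listed summed to 4.29 to 7.18 CPM in mutants and 13.9 to 26.3 CPM in controls. The third, *Alas2*, did not pass and lay on the other side of 0 (log2 fold change 0.26, edgeR adjusted p = 0.717). It was at 2.86 ± 1.31 CPM in mutants and 2.39 ± 0.938 CPM in controls. Of 6 tested retinal pigment epithelium markers, 4 were downregulated (*Pmel*, *Ttr*, *Tyrp1* and *Tyr*), and the 7 listed summed to 59.0 to 82.7 CPM against 90.4 to 123 CPM. 5 of 6 tested endothelial markers were downregulated (*Cldn5*, *Pecam1*, *Flt1*, *Cdh5* and *Tie1*) although the sum of the 7 listed overlapped (535 to 629 against 541 to 646 CPM). Most of that sum was *Kdr*, at 558 ± 41.1 CPM in mutants and 549 ± 59.9 CPM in controls. *Kdr* did not pass (log2 fold change 0.02), and the 5 endothelial markers that passed had log2 fold changes of -2.28 to -0.99. Control replicate 1 was far above the other controls in *Tie1* (8.08 against 1.73 to 2.54 CPM) and *Cdh5* (11.4 against 2.94 to 4.22 CPM). The same held for *Pecam1* (12.5 against 3.44 to 4.71 CPM) and *Cldn5* (17.7 against 7.4 to 7.9 CPM). In *Flt1* it was at 7.65 against 4.35 to 6.19 CPM. The size of these fold changes thus leans on that sample, and no fit without it is given for them. Of 6 tested lens genes, *Cryaa*, *Crygd* and *Crybb3* passed, but the groups overlapped. *Cryaa* was at 23.0, 1.16, 0.472 and 1168 CPM in control samples 1 to 4 and at 0 to 6.48 CPM in mutants (two-sided exact permutation p = 0.314), so its difference lay in control replicates 4 and 1. Of 5 tested Müller glia markers, *Glul* was upregulated and *Rlbp1* downregulated. No gene of these lists was at 0 counts in every sample. Their part in the histone results was not tested.

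*Hist2h2be* encodes an H2B and lies at chr3:96221119-96223738 on the plus strand. It was at 28.0, 29.3, 32.6 and 27.9 CPM in mutant samples 1 to 4 and at 55.4, 39.3, 33.5 and 37.1 CPM in controls. All mutant samples were below all controls, but control replicate 3 exceeded the highest mutant only slightly and control replicate 1 was far above the other controls. The log2 fold change was -0.49 (SE 0.14, edgeR adjusted p = 0.0421; two-sided exact permutation p = 0.0286). The call was lost without each of *Mettl3*-CKO replicates 1, 2, 3 and 4 and control replicates 2 and 4 (edgeR adjusted p = 0.134, 0.0914, 0.0614, 0.0992, 0.0779 and 0.0558). Without control replicate 1 the difference shrank to -0.31 and passed (edgeR adjusted p = 0.0288), and without control replicates 1 and 4 together it was -0.31 and did not pass (edgeR adjusted p = 0.0978).

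*Hist3h2ba*, an H2B gene at chr11:58948920-58949533 on the plus strand, had the highest level per length of the 67 genes, 101 FPKM as the mean of all samples. FPKM was computed here from the counts, the deposited gene lengths and the library totals. The gene was at 75.2, 53.2, 75.4 and 66.4 CPM in mutant samples 1 to 4 and at 67.9, 51.6, 53.6 and 52.8 CPM in controls. The groups overlapped, since mutant replicate 2 lay among the controls and control replicate 1 above the other controls. The log2 fold change was 0.26 (SE 0.13, edgeR adjusted p = 0.232; two-sided exact permutation p = 0.171). Without control replicate 1 it was 0.36 and passed (edgeR adjusted p = 0.0354).

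*Hist3h2a*, its neighbour in the Hist3 cluster, encodes an H2A. It overlaps *Trim17* on the same strand, so reads in the overlap cannot be assigned with certainty. The level was 12, 13.3, 15.4 and 13.8 CPM in mutant samples 1 to 4 and 22.1, 15.4, 17.3 and 16.4 CPM in controls. The groups touched at 15.4 CPM, where the control was above the mutant only beyond the printed digits. The log2 fold change was -0.38 (SE 0.13, edgeR adjusted p = 0.0889).

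*Hist1h4i*, which encodes H4, was higher in 3 of the mutant samples than in any control. It was at 14.6, 12.4, 13.3 and 10.1 CPM in mutant samples 1 to 4, while controls stayed between 9.61 and 10.4 CPM. Mutant replicate 4 lay within the controls. The log2 fold change was 0.33 (SE 0.13, edgeR adjusted p = 0.142; two-sided exact permutation p = 0.0857). *Hist1h2bc*, an H2B gene, was at 7.52 to 10.3 CPM against 7.35 to 13.3 CPM and overlapped fully (log2 fold change -0.22, SE 0.18, edgeR adjusted p = 0.507).

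**Figure D3:**
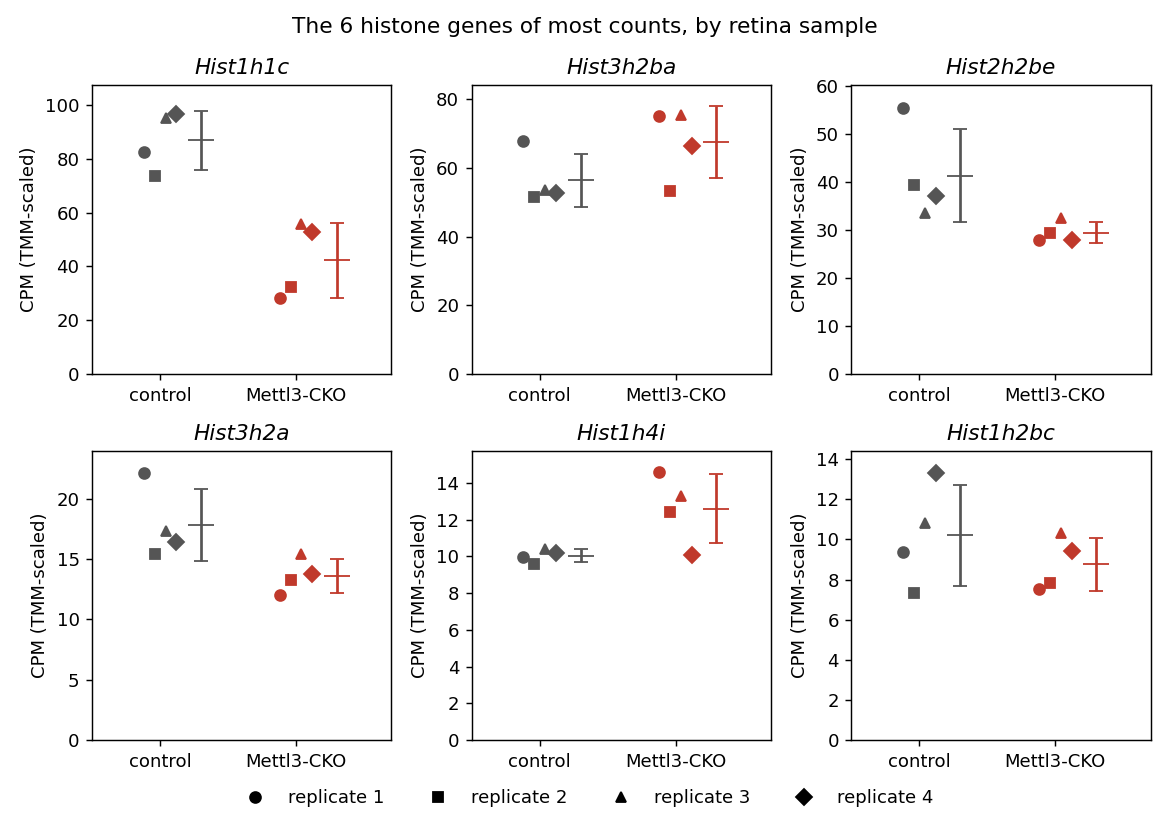
CPM (y axis, counts scaled to library size with TMM factors) of the 6 histone genes of most counts in each control (gray) and *Mettl3*-CKO (red) retina sample, with mean and SD of 4 samples. The mutant samples lie below all controls in *Hist1h1c* and *Hist2h2be*, whereas in *Hist3h2ba* and *Hist1h4i* 3 of the 4 mutant samples lie at or above most controls.

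These 6 genes held 85.7% of all counts of the class, with *Hist1h1c* at 27.8%, *Hist3h2ba* at 26.9% and *Hist2h2be* at 15.2%. The order per length was *Hist3h2ba* (101 FPKM), *Hist1h1c* (41.3), *Hist1h4i* (15.5), *Hist2h2be* (13.5), *Hist1h2bc* (8.18) and *Hist3h2a* (7.29). Within control retinas, *Hist3h2ba* (84.6 to 107 FPKM) was above *Hist1h1c* (47.4 to 62.3 FPKM) without overlap, whereas *Hist1h4i* (13.2 to 14.3 FPKM) and *Hist2h2be* (12.8 to 20.5 FPKM) overlapped, as did *Hist1h2bc* and *Hist3h2a*. The next genes of the order were *Hist1h2ao* (4.26 FPKM), *Hist1h3c* (4.23), *Hist1h2ai* (3.82) and *Hist1h3a* (3.35). None of those 4 passed the test, with log2 fold changes of -0.35, 0.15, -0.64 and -0.39 (edgeR adjusted p = 0.537, 0.761, 0.207 and 0.434). *Hist1h2ao* and *Hist1h2ai* share 91.5% and 86.1% of their windows with other genes, so their counts are uncertain.

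The most extreme fold changes belonged to genes of few counts. *Hist2h2ac*, an H2A gene that overlaps *Gm44492* on the opposite strand, had 9 to 17 counts per mutant sample and 13 to 32 per control. Its level was 0.553, 0.522, 0.903 and 0.537 CPM in mutant samples 1 to 4 and 1.71, 1.35, 1.63 and 0.786 CPM in controls. Only control replicate 4 fell among the mutants, and the log2 fold change was -1.12 (SE 0.34, edgeR adjusted p = 0.0543; two-sided exact permutation p = 0.0571). Without control replicate 4 it was -1.31 (edgeR adjusted p = 0.0374), and without control replicates 1 and 4 it was -1.24 (edgeR adjusted p = 0.0497).

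*Hist1h1e*, another linker histone gene, overlaps *Hist1h2be* and *Gm11398* on the same strand. It was at 1.38, 1.22, 0.584 and 0.586 CPM in mutant samples 1 to 4 and at 1.23, 3.31, 1.73 and 1.75 CPM in controls. Control replicate 1 lay among the mutants and control replicate 2 was far above the rest. The log2 fold change was -1.09 (SE 0.39, edgeR adjusted p = 0.094), and without control replicate 1 it was -1.27 and passed (edgeR adjusted p = 0.0238), as it did at -1.42 without control replicates 1 and 4 (edgeR adjusted p = 0.0353). *Hist1h2bg*, an H2B gene, had the highest value, 0.93 (SE 0.37, edgeR adjusted p = 0.141), with 0.638 to 1.42 CPM in mutants and 0.315 to 0.665 CPM in controls. *Hist1h3e*, which encodes H3, passed only without control replicates 1 and 4 (-1.41, edgeR adjusted p = 0.046). It was named for that call after its values were seen, and with all samples it was -0.99 (SE 0.41, edgeR adjusted p = 0.152).

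Summed over all 67 genes, the level was 197, 182, 230 and 204 CPM in mutant samples 1 to 4 and 278, 249, 253 and 263 CPM in controls. Every mutant sum was below every control sum, and the mean, 203 ± 20.1 against 261 ± 13.1 CPM, gives a change of -22.0%. Much of this lay in *Hist1h1c*. Without that gene the sums were 169, 150, 174 and 152 CPM against 196, 176, 158 and 166 CPM, a change of -7.34%, and the groups overlapped.

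Summed by family, 2 of the 5 did not overlap between the groups. The H1 sum was 30.5 to 57.1 CPM in mutants and 79.4 to 99.4 CPM in controls, a change of -51.2%, and *Hist1h1c* supplied nearly all of it. The H2A sum was 20.6 to 24.2 CPM against 28.2 to 32.2 CPM, a change of -23.6%, again with no overlap, although 0 of its 7 tested genes passed on their own. *Hist3h2a*, at 13.6 ± 1.4 against 17.8 ± 2.97 CPM, made up most of the H2A sum. H2B, H3 and H4 overlapped. H2B held 48.4% of the counts and was 110 ± 12 CPM in mutants and 113 ± 16.5 CPM in controls, with *Hist3h2ba* and *Hist2h2be* on opposite sides of 0. H3 was 7.13 ± 1.09 against 8.69 ± 2.93 CPM, a change of -17.9%, and H4 was 19.3 ± 3.2 against 18.6 ± 3.0 CPM, a change of 3.61%. The 12 genes with AATAAA near the transcript end summed to 133 to 183 CPM against 187 to 231 CPM without overlap (-24.1%), whereas the other 55 summed to 38.8 to 49.3 CPM against 47.4 to 62.7 CPM and overlapped (-13.9%). The former contain *Hist1h1c*.

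**Figure D4:**
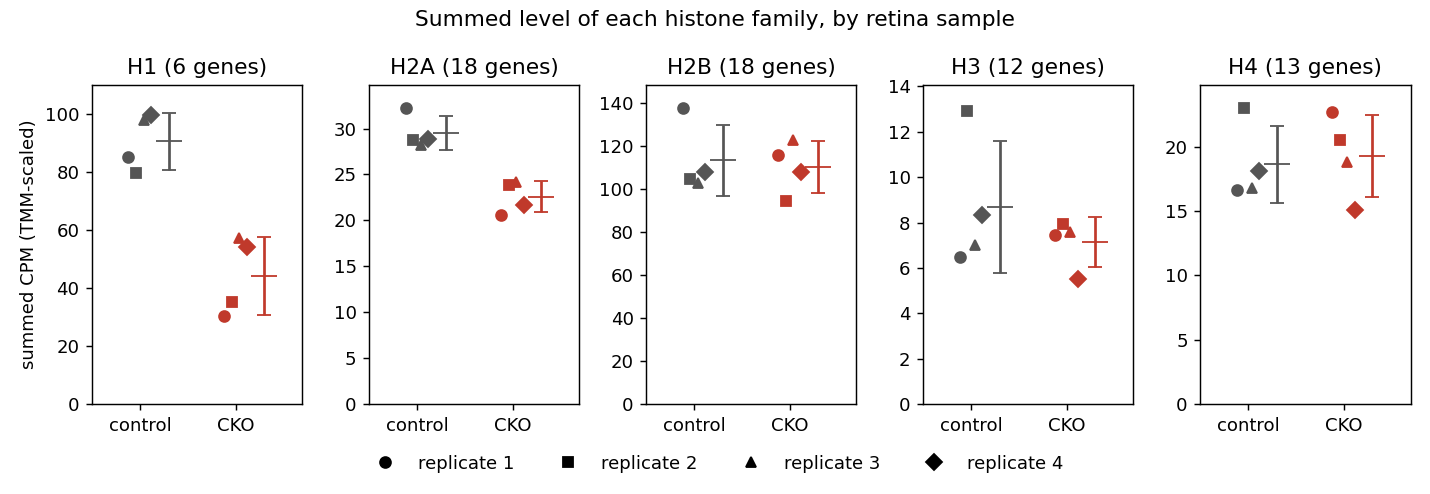
Summed CPM (y axis) of the genes of each histone family in each control (gray) and *Mettl3*-CKO (red; CKO) retina sample, with mean and SD of 4 samples. H1 and H2A do not overlap between the groups, and H2B, H3 and H4 do.

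The 61 genes of fewer counts were close to the depth limit and held 14.3% of the counts. They summed to 31.7, 33.6, 27.5 and 23.9 CPM in mutant samples 1 to 4 and to 31.4, 52.4, 32.0 and 36.6 CPM in controls, with control replicate 2 far above the other 7 samples. Among other RNAs without a poly(A) tail, *Rn7sk* was also high in that library and in control replicate 1. The 12 listed, of which 2 were tested and 5 had 0 counts throughout, summed to 4.06 to 9.1 CPM in mutants and to 29.1, 38.2, 7.66 and 9.97 CPM in control samples 1 to 4. *Rn7sk*, the 7SK RNA, made up most of this, at 2.74 to 7.83 CPM in mutants and 27.8, 37.4, 6.56 and 8.28 CPM in controls (log2 fold change -1.99, SE 0.50, edgeR adjusted p = 0.0242). *Terc*, the telomerase RNA, did not pass (0.05, edgeR adjusted p = 0.943). It was at 0.612 CPM in control replicate 2 and at 0.85 to 1.33 CPM in the other samples. The part of such library differences in the histone values was not tested.

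Genes of DNA synthesis are used in S phase, when these histone genes are transcribed. Of 21 such genes 10 were upregulated and 0 downregulated, all 21 had log2 fold changes above 0, and their median was 0.41. They included *Mcm2*, *Mcm3*, *Mcm4* and *Mcm5* of the replicative helicase (0.35 to 0.53) and *Rrm2* of ribonucleotide reductase (0.52, SE 0.11, edgeR adjusted p = 0.0125). *Fen1*, the flap endonuclease, had the largest change (0.93, SE 0.21, edgeR adjusted p = 0.0159), and *Prim1*, *Pola1*, *Ccne1* and *Gins2* also passed. *Pcna* and *Mcm7*, the members of highest FPKM, did not (0.23 and 0.09, edgeR adjusted p = 0.151 and 0.574). The list summed to 1855, 1955, 1936 and 1587 CPM in mutant samples 1 to 4 and to 1319, 1544, 1552 and 1461 CPM in controls, without overlap. The count of 10 rested on several libraries. It was 0, 2 and 3 without *Mettl3*-CKO replicates 1, 2 and 3, 6 and 5 without control replicates 2 and 4, and 2 without control replicates 1 and 4 together.

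Of 8 progenitor markers, 3 were upregulated, *Mki67* and *Fgf15* among them, the list summed to 2695 to 3742 CPM in mutants and 1914 to 2593 CPM in controls, and *Mki67*, a gene of dividing cells, had a log2 fold change of 0.98 (SE 0.12, edgeR adjusted p = 0.000701). The other 5 did not pass, and *Sfrp2*, at 11.8 ± 2.81 CPM in mutants and 12.8 ± 4.73 CPM in controls, was the member with a log2 fold change below 0 (-0.11). The count of 3 was 6 without *Mettl3*-CKO replicate 4, 5 with DESeq2, 5 with the replicate number as a block and 7 with no filter on low counts. *Ccnd1*, the progenitor marker of highest FPKM, did not pass (0.35, SE 0.14, edgeR adjusted p = 0.158). The S-phase and progenitor sums were thus above the controls in all 4 mutant samples, whereas the histone sum without *Hist1h1c* overlapped.

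**Figure D5:**
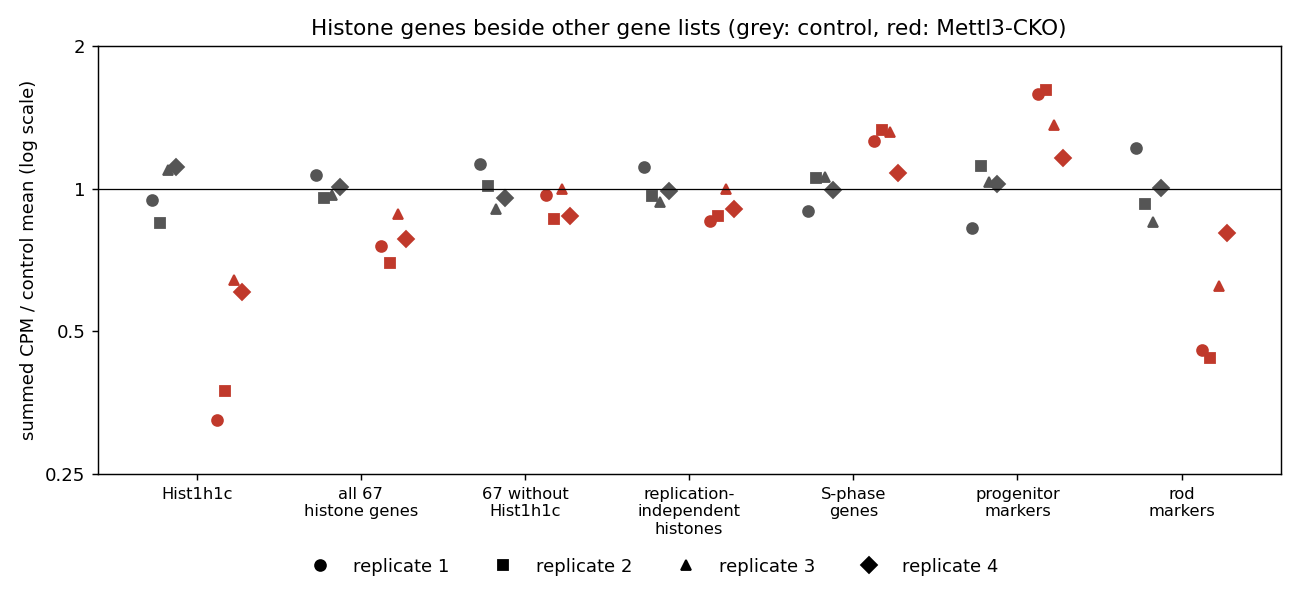
Summed CPM of each gene list divided by the mean of the 4 controls (y axis, log scale) in each control (gray) and *Mettl3*-CKO (red) retina sample. The mutant samples lie below the controls for *Hist1h1c*, all 67 histone genes and the rod markers, above them for the S-phase genes and progenitor markers, and overlap them for the histone genes without *Hist1h1c* and the replication-independent histone genes.

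Replication-independent histone genes were far more abundant. Of the 11 tested, 3 were upregulated and 0 downregulated, with a median log2 fold change of 0.03, and the summed CPM overlapped (4872 to 5688 in mutants, 5345 to 6334 in controls). *H2afz*, which encodes the variant H2A.Z, was 578 ± 60.9 CPM in *Mettl3*-CKO and 453 ± 12.3 CPM in control retinas (log2 fold change 0.35, SE 0.09, edgeR adjusted p = 0.0271). *Cenpa*, the centromeric H3, was at 86.1, 86.9, 82.0 and 70.9 CPM against 50.1, 66.3, 62.6 and 58.7 CPM, again without overlap (0.46, SE 0.10, edgeR adjusted p = 0.0172), and *H2afj* passed at 0.33 (SE 0.09, edgeR adjusted p = 0.0424). The most abundant per length, *H3f3b* for H3.3 (933 FPKM) and *H1f0* for the linker histone H1.0 (437 FPKM), did not pass (-0.31 and -0.05, edgeR adjusted p = 0.124 and 0.799). *H1f0*, a linker histone of differentiated cells, was 884 ± 49 against 913 ± 71.9 CPM, beside the change of -1.04 in *Hist1h1c*. The count of 3 was 0 without *Mettl3*-CKO replicate 1, 1 without *Mettl3*-CKO replicate 3 or control replicate 2, 3 or 4, and 1 without control replicates 1 and 4. Without control replicate 1, 1 gene was lower.

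Of 17 factors that make and bind histone mRNA, 4 were upregulated and 0 downregulated, with a median log2 fold change of 0.16. *Lsm10*, a subunit of the U7 snRNP, was at 22.9, 13.4, 20.3 and 14.8 CPM in mutant samples 1 to 4 and at 7.38, 7.59, 5.72 and 4.29 CPM in controls. All mutant samples were well above all controls (log2 fold change 1.51, SE 0.21, edgeR adjusted p = 0.0011). *Lsm11*, the partner subunit, changed less (0.30, SE 0.08, edgeR adjusted p = 0.0345). *Slbp*, the stem-loop binding protein, was at 71.4 to 88.9 CPM against 59.3 to 72.6 CPM (0.34, SE 0.10, edgeR adjusted p = 0.0411), and *Casp8ap2*, which encodes FLASH of the histone processing machinery, was at 66.0 to 90.9 CPM against 46.4 to 62.1 CPM (0.58, SE 0.12, edgeR adjusted p = 0.0114). *Ncbp2* and *Srrt*, the factors of highest FPKM, did not pass (0.31 and -0.07, edgeR adjusted p = 0.0633 and 0.763). The count of 4 was 2 without *Mettl3*-CKO replicate 2 or 3 or control replicate 3 or 4, and 7 without control replicate 1, where 2 were lower. Without control replicates 1 and 4 together, 3 were higher and 2 were lower.

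Histone chaperones, which carry histones to DNA, had 4 of 15 genes upregulated and 0 downregulated, with a median log2 fold change of 0.11. *Asf1b* (0.66, SE 0.15, edgeR adjusted p = 0.0144) and the chromatin assembly factor subunits *Chaf1a* (0.57, SE 0.16, edgeR adjusted p = 0.0387) and *Chaf1b* (0.47, SE 0.14, edgeR adjusted p = 0.0468) deliver H3 and H4 behind the replication fork. *Hjurp*, the chaperone of *Cenpa*, was at 338 to 418 CPM against 252 to 292 CPM (0.46, SE 0.09, edgeR adjusted p = 0.00865). The members of highest FPKM, *Nap1l1* and *Ssrp1*, did not pass (0.02 and 0.11, edgeR adjusted p = 0.922 and 0.422). The count of 4 was 1 without *Mettl3*-CKO replicate 1, 2 without *Mettl3*-CKO replicate 2 or control replicate 2 or 4, and 1 without control replicates 1 and 4.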

How the data were processed

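The labels, the series text and the study's methods describe whole-retina RNA from 4 *Mettl3*-CKO and 4 control samples, made into libraries with a NEBNext Ultra kit, sequenced as 150-base paired ends, mapped with Hisat2 to GRCm38 and counted per gene with featureCounts. The deposited values are the authors' raw read counts per gene, whole numbers with totals of 16227095 to 20281517, and not normalized. The annotation release, the strand setting and the treatment of reads that map to several genes are not given in the sources used here. No 2 libraries of the same group agreed within sampling noise (lowest chi-square per gene between replicates 5.46), and a biological coefficient of variation of 15% was fitted.

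From the counts, genes kept by filterByExpr (17998 of 54532) were fitted with edgeR 4.0.16 (R 4.3.3) by the quasi-likelihood test with TMM factors (0.969 to 1.01), control against *Mettl3*-CKO with no covariate, and Benjamini-Hochberg adjustment over all genes at 0.05. CPM values are TMM-scaled, and the exact permutation tests used log2 CPM with a prior count of 2. Alternatives were DESeq2 1.42.0, limma 3.58.1 (voom), RLE size factors, no filter on low counts, the replicate number as a block, each sample left out, an adjusted p of 0.1 and, chosen after the data were seen, control replicates 1 and 4 left out together, and all but the 0.1 threshold for the S-phase, rod and progenitor lists. Stem-loops and shared 150-base windows were read from GENCODE transcripts and promoters from RefSeq tables.

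The histone genes, the other gene lists and the tests were chosen with earlier results of these data known. Named in the text are *Mettl3*, every histone gene that passed, the 10 of highest FPKM, the 2 highest and 2 lowest fold changes, and from each other list the genes that passed and the 2 of highest FPKM. For tissue next to the retina and Müller glia, the genes that passed are named, and of the others only *Kdr* and *Alas2*. Some marker genes are not reported here by name.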

Additional observations from a re-analysis of the deposited data

Results flagged for a closer look

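In 5 of the 60 groups of 4 samples examined, 1 sample lay apart from the other 3 by more than Dixon's critical value of 0.829 for the gap over the range, where chance gives about 3.0. 3 of the 5 were high values of control replicate 1. *Hist3h2ba* was at 6.09 log2 CPM in that sample and at 5.69 to 5.75 in the other controls. The H2B family sum, of which *Hist3h2ba* is a large part, was at 7.11 log2 CPM against 6.69 to 6.75, and *Casp8ap2* was at 5.96 against 5.54 to 5.61. *Hist2h2ac* was at 0.02 log2 CPM in *Mettl3*-CKO replicate 3 and at -0.66 to -0.59 in the other mutants, on 9 to 17 counts. The H3 family sum was low in *Mettl3*-CKO replicate 4, at 2.46 log2 CPM against 2.90 to 2.99.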

How the results depend on the processing

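*Hist1h1c* passed under all 14 alternatives run for it, with log2 fold changes of -1.19 to -0.88 and adjusted p of 1.83e-07 to 0.0255. *Hist2h2be* passed under 5 of 14 (adjusted p 0.00734 to 0.134); with limma voom it was -0.47 (adjusted p = 0.0572). Over the 13 named histone genes, 167 of 182 alternative values kept direction and side of the threshold, 9 lost the call, 6 gained it and 0 changed sign. The number of histone genes lower was 1 with limma voom and 1 with the replicate block, 4 with both control replicates 1 and 4 left out and 5 at an adjusted p under 0.1. Leaving out each sample in turn gave 0 to 1 histone genes higher and 1 to 3 lower, and over all genes 509 to 1882 higher and 185 to 1289 lower, the lowest without *Mettl3*-CKO replicate 1 and the highest without control replicate 1. It gave 0 to 3 replication-independent histone genes higher and 0 to 1 lower, 2 to 7 histone mRNA factors higher and 0 to 2 lower, and 1 to 4 chaperones higher. Without control replicates 1 and 4 the counts were 1 replication-independent gene higher, 2 mRNA factors lower and 1 chaperone higher. The causes were not tested. Samples with the same replicate number, 1 to 4, correlated at -0.111, 0.215, -0.114 and 0.249 in their deviations. The highest correlation with another number was 0.154, 0.132, 0.264 and 0.026, so these values do not decide whether the numbers pair the samples. *Hist2h2be* with the replicate block was -0.46 (edgeR adjusted p = 0.0637). A window of 100 bases after the stop codon also found 41 stem-loops. Depth or shared sequence limits what can be said of the 40 untested genes, and the annotation limits the sequence search.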
